A study of Mus musculus with 6 samples.

Results

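Basic helix-loop-helix (bHLH) factors are transcription factors that pair through a helix-loop-helix domain and, through a basic stretch beside it, bind the short DNA sequence CANNTG, called the E-box. The genes described here are 41 named members of this family, of which 40 were measured among 19938 genes. They were taken as a list of names that was chosen with earlier results of these data known. Each is read from its array row with 1 gene symbol. Bhlhe22, a neuronal repressor of the Olig-related branch, was not analysed here. The cells were mouse embryonic stem cells of the W4/129S6 background, whose Nkx2-1 locus carries a knock-in of green fluorescent protein (GFP) as reporter. Nkx2-1 is a homeobox gene of lung, thyroid and ventral forebrain. All samples carried this reporter. After 14 days of differentiation the cells were sorted into 3 GFP-positive samples (Nkx2-1 high) and 3 GFP-negative samples (Nkx2-1 low), which the labels call biological replicates, all with the same reporter and background in the labels. The comparison asks how cells sought as lung and thyroid progenitors differ from the cells left outside the gate. In such sorted populations, a lower value from fewer cells of a type and from less RNA per cell cannot be told apart.

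The family works by choice of partner. Proneural factors such as the neurogenins and NeuroD proteins pair with the widely expressed E proteins (Tcf3, Tcf4, Tcf12) and switch on neuronal genes. Id proteins have the helix-loop-helix domain without the basic stretch, so they hold E proteins in pairs that cannot bind DNA, and their genes are well known targets of BMP signalling. Hes and Hey proteins are repressors that Notch signalling induces, and they hold back proneural genes. Hand, Mesp, Tcf15, Tcf21, Scx and Twist factors act mainly in mesoderm and its derivatives.

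The 40 genes split evenly in sign, and few of them passed the test. On the log2 scale of the deposited array values, 3 rose in Nkx2-1 high (Id4, Bhlhe40 and Hand1) and 3 fell (Id2, Nhlh2 and Neurod1). The other 34 did not pass, and none of the 40 changed by as much as 1 on the log2 scale: the differences ran from -0.54 to 0.49. "Rose" and "fell" mean a Benjamini-Hochberg adjusted p under 0.05 in limma over all 19938 genes, and each difference is Nkx2-1 high minus Nkx2-1 low with its standard error (SE). The 6 calls are 15.0% of the 40 genes. Over all genes 6.0% were called, and 8.40% of the 13404 genes above background, a log2 level of 4.30 taken from the rows of olfactory and vomeronasal receptor genes. By direction, 2.90% of all genes were called higher and 3.09% lower. The median difference over the 40 genes was -0.01, as it was over all genes (-0.01). In 16 of the 40 genes the 3 samples of one fraction did not overlap the 3 of the other, against 24.7% of all genes. Because the list was chosen with earlier results known, these shares are descriptions and not a test of the family. Of the 40 genes, 29 were above background in at least 1 fraction, and the 11 others had means between 2.20 and 4.23 in both.

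**Figure D1:**
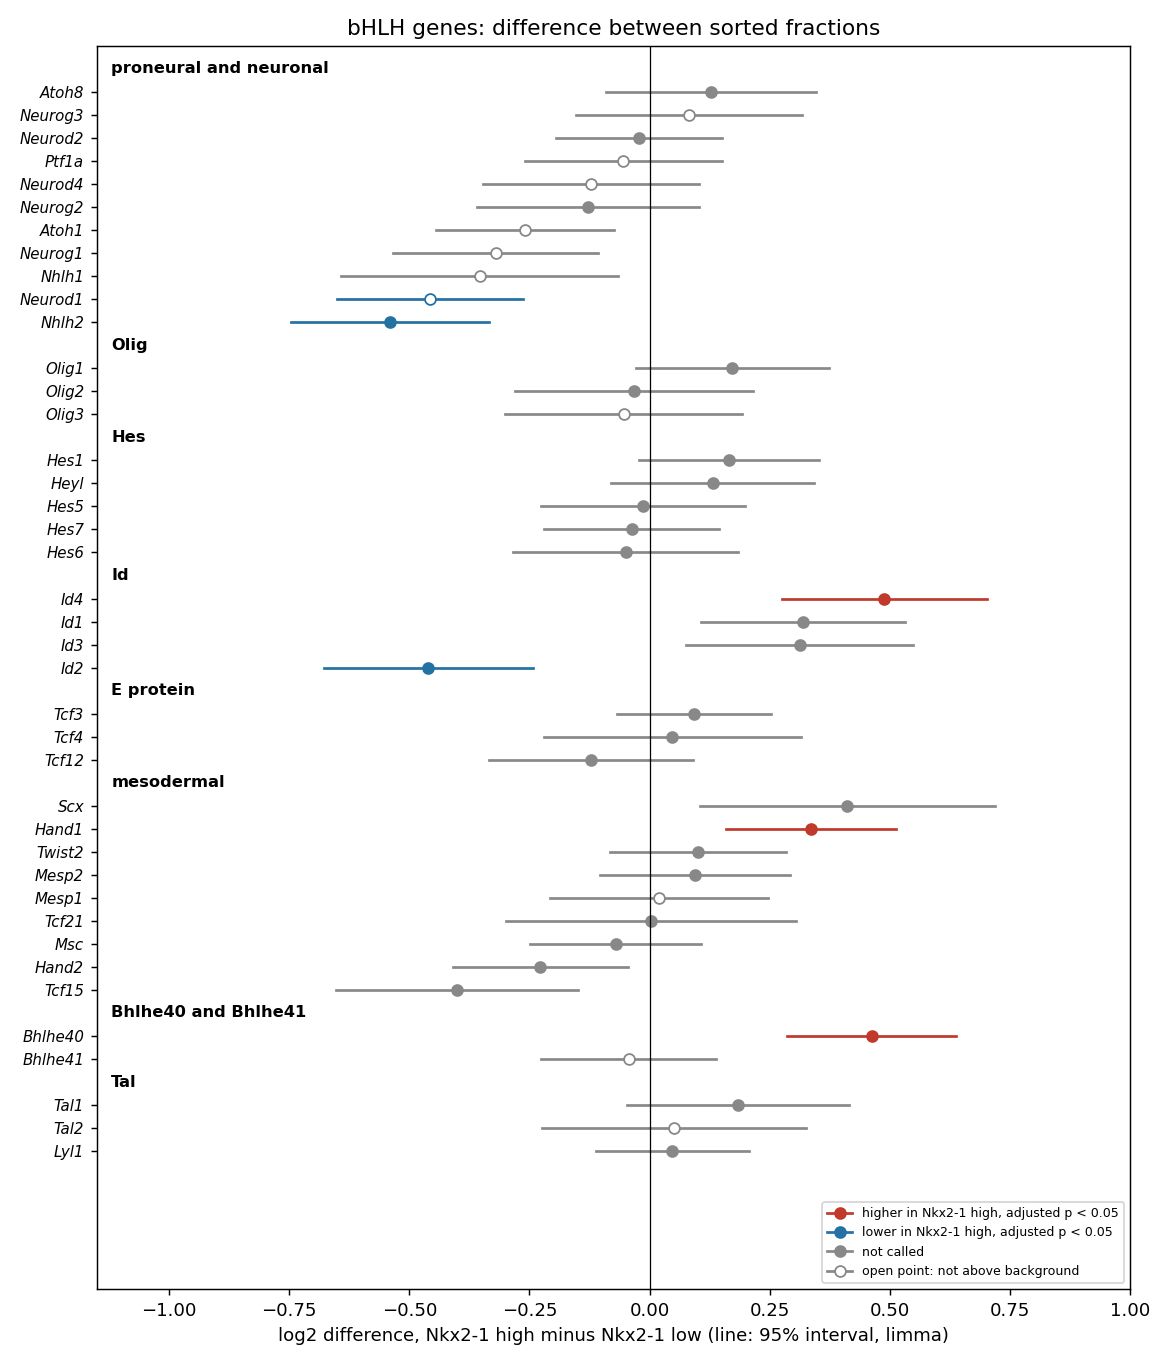
Log2 difference (Nkx2-1 high minus Nkx2-1 low) of the 40 measured bHLH genes with its 95% interval, grouped by role. Red and blue mark the 3 genes that rose and the 3 that fell, grey marks genes that did not pass, and open points are genes not above background in either fraction. Id4 stands at 0.49 and Id2 at -0.46 within the same small family.

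As a check of the sort, the level of Nkx2-1 differed by 2.39 ± 0.08 on the log2 scale, or 5.25-fold. Across genes, Pearson r was 0.994 to 0.996 within a fraction and 0.988 to 0.991 between fractions. Genes are not independent replicates. In a list of 19 lung, thyroid and endoderm genes, 4 rose and 1 fell, where 6.0% of all genes were called. Of the 19, 13 were above background. Sftpc, Scgb1a1, Scgb3a2, Tg, Tshr and Sox17, which mark mature lung and thyroid cells and early endoderm, were not. Among those that were, the endoderm factor gene Hhex (0.98 ± 0.15), the thyroid factor gene Pax8 (0.60 ± 0.10), the surfactant gene Sftpa1 (0.49 ± 0.09) and Bmp4 rose, and the epithelial gene Epcam fell by 0.81 ± 0.11. Sftpa1, named here after its values were seen, lost its call without both samples numbered 3. The surfactant gene Sftpb was above background in both fractions and did not pass (0.18 ± 0.09). Neither did Foxa1 (-0.41 ± 0.24), Cdh1 (-0.36 ± 0.12), Shh (-0.35 ± 0.18), Foxa2 (-0.04 ± 0.10) or Sox9 (-0.03 ± 0.07), all above background. The same held for Irx1 (0.06 ± 0.11) and Foxe1 (0.16 ± 0.09). These uncalled genes were named after their values were seen. The number of called genes over the whole array was 1196 with all 6 samples. Dropping replicate 1 of Nkx2-1 high left 772 calls, and dropping replicate 2 of it left 624. Dropping replicate 1 of Nkx2-1 low left 765, and dropping replicate 2 of it left 709. The calls among the 40 genes were then 3, 3, 3 and 4. Without replicate 3 of Nkx2-1 high, 1086 genes were called, with 6 among the 40, of which 5 were also called with all samples. Without replicate 3 of Nkx2-1 low, 819 were called, with 2 among the 40.

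Sequence upstream of a few of these genes is shown because they carry the opposite changes: Id2 and Nhlh2 fell, Id4 rose, and Id3 was higher without passing. Each line gives the 250 bases before the annotated transcript start, 5′ to 3′ on the gene's strand, from RefSeq on GRCm38.p6. They lie at chr12:25096093-25096342 (minus strand) for Id2, chr13:48260866-48261115 (plus strand) for Id4, chr4:136143572-136143821 (plus strand) for Id3 and chr3:102009895-102010144 (plus strand) for Nhlh2. Capitals mark any match, on either strand, to 6 motifs: the E-box CANNTG, its form CACGTG that Hes, Myc and Bhlhe40 proteins use, the N-box CACNAG of Hes proteins, TGGGAA (the core bound by Rbpj, the Notch effector), GGCGCC (a GC-rich element of BMP Smads) and CTCAAG (a core of Nkx2-1 sites).
Id2: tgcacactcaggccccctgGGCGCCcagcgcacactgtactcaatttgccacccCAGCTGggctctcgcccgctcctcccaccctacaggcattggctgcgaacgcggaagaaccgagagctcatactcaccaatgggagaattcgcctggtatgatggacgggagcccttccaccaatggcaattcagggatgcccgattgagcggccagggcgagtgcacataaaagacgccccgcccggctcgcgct
Id4: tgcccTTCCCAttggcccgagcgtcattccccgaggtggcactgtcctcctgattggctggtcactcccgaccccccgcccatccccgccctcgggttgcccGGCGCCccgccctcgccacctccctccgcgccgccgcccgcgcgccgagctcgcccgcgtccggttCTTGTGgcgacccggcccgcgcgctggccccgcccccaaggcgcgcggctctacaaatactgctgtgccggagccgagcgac
Id3: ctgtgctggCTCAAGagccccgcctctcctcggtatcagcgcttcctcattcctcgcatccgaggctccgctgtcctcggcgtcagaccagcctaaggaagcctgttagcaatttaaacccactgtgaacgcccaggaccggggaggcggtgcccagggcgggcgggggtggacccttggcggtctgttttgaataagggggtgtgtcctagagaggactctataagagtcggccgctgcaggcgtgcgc
Nhlh2: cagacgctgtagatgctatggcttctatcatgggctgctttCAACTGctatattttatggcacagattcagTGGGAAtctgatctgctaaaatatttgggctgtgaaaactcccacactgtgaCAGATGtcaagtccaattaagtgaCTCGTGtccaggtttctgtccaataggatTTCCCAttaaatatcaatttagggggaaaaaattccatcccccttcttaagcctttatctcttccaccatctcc

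The Id2 window held 1 E-box, CAGCTG, whose first base lies 196 bases before the start, and 1 GGCGCC, which begins 231 bases before it. The Id4 window held no E-box. It had 1 GGCGCC, 1 N-box and 1 Rbpj core. Id3 had CTCAAG alone, 241 bases before the start. Nhlh2 had 2 E-boxes (CAACTG and CAGATG), 1 N-box and 2 Rbpj cores, in a window of 42.0% G and C against 62.8% in Id2, 75.6% in Id4 and 62.8% in Id3. CACGTG is itself an E-box and no other pair of these motifs shares its letters in full. Windows were found for 30 of the 41 genes by symbol, and the first listed start was used. An E-box was present in 19 of those 30 (63.3%) and in 66% of the windows of all 27025 genes. GGCGCC was in 6 of the 30 (20%), against 9.54% of all windows, and the median G and C content was 62.2% in the 30 and 52.0% in all. CTCAAG was in 5 of the 30 (16.7%), against 13.6%, and the Rbpj core in 8 (26.7%), against 21.5%. N-boxes were in 6 (20%), against 36.7%, and CACGTG in 2 (6.67%), against 6.05%. A match is a run of letters and does not show binding.

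All 4 Id genes were above background, and in none of the 4 did the samples of the fractions overlap, as in 24.7% of all genes. Id4 rose and Id2 fell, while Id1 and Id3 were higher in every Nkx2-1 high sample but did not pass. Id2 is a partner of E proteins that developing lung tips also express, and Id4 is studied mainly in the nervous system.

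Id4 had log2 levels of 7.46, 7.40 and 7.50 in the Nkx2-1 high samples, against 7.15, 6.82 and 6.93 in the Nkx2-1 low samples. The lowest Nkx2-1 high sample thus lay above the highest Nkx2-1 low sample. Id4 rose 1.40-fold (0.49 ± 0.10 SE, limma adjusted p = 0.0160, 95% interval 0.27 to 0.70). The call was lost without Nkx2-1 high replicate 1 (adjusted p = 0.0559), Nkx2-1 high replicate 2 (0.0511), Nkx2-1 low replicate 2 (0.0646) or Nkx2-1 low replicate 3 (0.0533), with differences of 0.42 or more each time.

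Id2 had log2 levels of 7.90, 8.00 and 8.12 in the Nkx2-1 high samples, against 8.62, 8.34 and 8.45 in the Nkx2-1 low samples. All Nkx2-1 high samples lay below all Nkx2-1 low samples. Id2 fell by 0.46 ± 0.10 on the log2 scale (1.38-fold lower, limma adjusted p = 0.0223). The call was lost without Nkx2-1 high replicate 1 (adjusted p = 0.0855), Nkx2-1 high replicate 2 (0.0868), Nkx2-1 low replicate 1 (0.0741) or Nkx2-1 low replicate 3 (0.0576). Id2 is the 1 member of the group whose sign was negative.

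Id1 had log2 levels of 6.86, 6.55 and 6.82 in Nkx2-1 high and 6.42, 6.40 and 6.44 in Nkx2-1 low. Nkx2-1 high replicate 2 stood closest to the Nkx2-1 low samples, and the difference of 0.32 ± 0.09 missed the threshold (limma adjusted p = 0.0893). Without that sample it was 0.42 and passed (limma adjusted p = 0.0422). Without any other 1 sample Id1 did not pass (limma adjusted p from 0.166 to 0.237). Id3 had 6.55, 6.77 and 6.89 in Nkx2-1 high and 6.53, 6.30 and 6.45 in Nkx2-1 low. Here replicate 1 of both fractions nearly met, and the difference of 0.31 ± 0.11 did not pass (limma adjusted p = 0.133).

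The opposite signs of Id4 and Id2 can also be read inside each sample, as a description chosen after the values were seen. An exact permutation test gave p = 0.1, the smallest value it can give with 3 samples per fraction, so it cannot decide. The log2 ratio of Id4 to Id2 was -0.44, -0.60 and -0.63 in Nkx2-1 high, against -1.47, -1.52 and -1.53 in Nkx2-1 low. The Id4 to Id2 ratio was thus higher by 0.95 on the log2 scale in Nkx2-1 high. The ratios of Id1 and of Id3 to Id2 were also higher there, by 0.78 and 0.77. These ratios restate the differences of the genes in them, and a ratio compares different probes, so only its shift between fractions can be read.

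**Figure D2:**
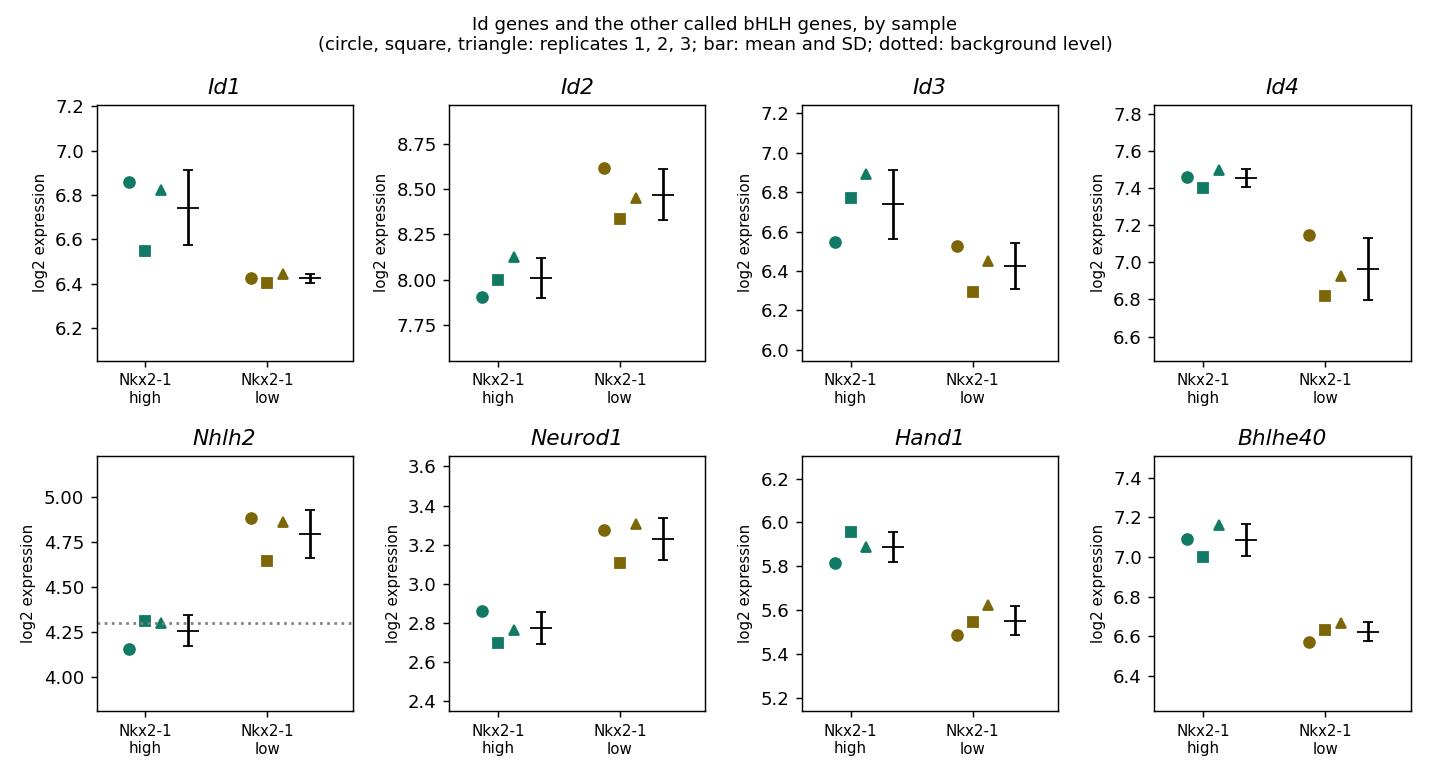
Log2 expression of the 4 Id genes, Nhlh2, Neurod1, Hand1 and Bhlhe40 in each of the 3 Nkx2-1 high and 3 Nkx2-1 low samples, with the mean and SD beside the points. In each of the 8 panels the fractions do not overlap, with Id2, Nhlh2 and Neurod1 lower in Nkx2-1 high and the other 5 genes higher. The dotted line in the Nhlh2 panel is the background level of 4.30.

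Genes of BMP signalling, the best known inducer of Id genes, moved in both directions. Of 24 measured genes of the pathway 3 rose and 4 fell, with a median difference of 0.01. All 24 were above background, where 8.40% of genes were called over the array. The ligand gene Bmp4 had log2 levels of 8.29, 8.10 and 8.14 in Nkx2-1 high, against 7.29, 7.24 and 7.12 in Nkx2-1 low (0.97 ± 0.09, limma adjusted p = 0.000227). Grem1, which encodes a secreted BMP antagonist, and Bambi, which encodes a decoy receptor, also rose, by 0.66 ± 0.12 and 0.36 ± 0.09. With any 1 of the 6 samples left out, Bambi no longer passed (highest adjusted p = 0.136). The homeobox gene Msx1, another target of the pathway, was 3.02-fold lower (-1.59 ± 0.11). Its paralog Msx2 (-0.001 ± 0.10) and the pathway genes Smad6 (0.07 ± 0.08) and Smad7 (0.30 ± 0.09) did not pass. The ligand genes Bmp7 (-0.80 ± 0.15) and Bmp5 (-0.61 ± 0.11) fell as well. Bmp5 missed the threshold without Nkx2-1 high replicate 2 (adjusted p = 0.0525). The receptor gene Bmpr1b, which was above background in Nkx2-1 low alone, was at least 1.06-fold lower in Nkx2-1 high (limma adjusted p = 0.000543). Grem1, Bmp5, Bambi, Msx2, Smad6 and Smad7 were named after their values were seen. The part of these genes in the Id values was not tested.

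Of 11 measured proneural and neuronal bHLH genes 2 fell, 0 rose, and 9 had a negative difference, with a median of -0.13. Over all genes 6.0% were called and 3.09% were called lower, and 10450 of the 19938 had a negative difference. The group sat low on the array: 4 of the 11 were above background in at least 1 fraction. Nhlh2, a factor of postmitotic neurons and of hypothalamic neurons in particular, had log2 levels of 4.16, 4.31 and 4.30 in Nkx2-1 high, against 4.88, 4.64 and 4.86 in Nkx2-1 low. The Nkx2-1 high samples lay around the background level of 4.30 and the Nkx2-1 low samples all above it. Nhlh2 fell by 0.54 ± 0.09, at least 1.41-fold when taken against the background level (limma adjusted p = 0.00807), and it passed whichever of the 6 samples was dropped (highest adjusted p = 0.0365).

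Neurod1, a differentiation factor of neurons and of endocrine cells, had 2.86, 2.70 and 2.76 in Nkx2-1 high, against 3.27, 3.11 and 3.31 in Nkx2-1 low. It passed the test (-0.46 ± 0.09, limma adjusted p = 0.0141) at levels not above background in any sample, so no fold is given. Without Nkx2-1 high replicate 2, Nkx2-1 low replicate 1 or Nkx2-1 low replicate 3 the adjusted p was 0.0707, 0.0535 and 0.0517. Its relative Neurod2, of maturing cortical neurons, was above background and differed by -0.02 ± 0.08, with levels of 4.95, 4.85 and 4.96 in Nkx2-1 high and 4.87, 4.98 and 4.97 in Nkx2-1 low. Neurod4 was not above background and differed by -0.12 ± 0.10.

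The neurogenins, which commit progenitors to a neuronal fate, did not pass. Neurog2 had 4.01, 4.33 and 4.28 in Nkx2-1 high and 4.27, 4.45 and 4.29 in Nkx2-1 low, next to the background level, and the samples overlapped. Neurog1 (-0.32 ± 0.10, adjusted p = 0.0907), Atoh1 (-0.26 ± 0.08, adjusted p = 0.111) and Nhlh1 (-0.35 ± 0.13, adjusted p = 0.163) were lower in every Nkx2-1 high sample, at levels not above background, without passing. Neurog3, the initiator of pancreatic endocrine cells, and Ptf1a, a factor of pancreatic acinar cells and of inhibitory neurons, were not above background (0.08 ± 0.10 and -0.05 ± 0.09). Atoh8, a factor with roles in several tissues and above background in every sample, had 6.29, 6.23 and 6.13 in Nkx2-1 high and 5.91, 6.13 and 6.23 in Nkx2-1 low, and the fractions overlapped (0.13 ± 0.10).

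Among markers of neurons more genes fell than rose. Of 18 measured neuronal genes 7 fell and 1 rose (Isl1, which has roles beyond neurons, by 1.33 ± 0.15), 10 did not pass, and the median difference was -0.34. By comparison, 3.09% of all genes were called lower and 2.90% higher. The intermediate filament gene Ina fell by 1.58 ± 0.14. Dcx and Stmn2, of young neurons, were above background in Nkx2-1 low alone and at least 2.24-fold and 1.75-fold lower in Nkx2-1 high. The mean log2 level of the 18 genes ran from 4.63 to 4.84 over the Nkx2-1 high samples and from 5.11 to 5.16 over the Nkx2-1 low samples. Of the 18, 16 were above background in at least 1 fraction, and Nefm and Neurod6 were not. The part of neuronal cells in the Nhlh2 and Neurod1 values was not tested.

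The Olig genes, which act in spinal cord progenitors, some of them in those of oligodendrocytes, did not differ beyond the test. Olig1 had 4.34, 4.34 and 4.25 in Nkx2-1 high and 4.12, 4.28 and 4.01 in Nkx2-1 low (0.17 ± 0.09, adjusted p = 0.347), all next to background. Olig2 had 4.22, 4.44 and 4.49 in Nkx2-1 high and 4.26, 4.61 and 4.37 in Nkx2-1 low, and the fractions overlapped. Olig3 was not above background.

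All 5 Hes-type repressor genes were above background and 0 passed the limma test in either direction. Of all genes above background 8.40% were called, so 0 of 5 does not set the group apart. None of the 5 had an unadjusted p under 0.05. Hes1, the main Notch effector of many progenitors, had log2 levels of 7.09, 7.03 and 7.01 in Nkx2-1 high, against 6.92, 6.75 and 6.97 in Nkx2-1 low. The samples did not overlap, yet the difference was small (0.17 ± 0.08, limma adjusted p = 0.335, 95% interval -0.02 to 0.35). Hes5, a Notch target of neural progenitors, had 5.88, 6.02 and 6.14 in Nkx2-1 high and 5.93, 6.01 and 6.14 in Nkx2-1 low. Its values were nearly matched between samples of the same number (difference -0.01 ± 0.09, 95% interval -0.23 to 0.20).

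Hes6, which counters Hes1 and favours neurogenesis, had 5.64, 5.51 and 5.92 in Nkx2-1 high and 5.71, 5.73 and 5.77 in Nkx2-1 low. Hes7, a clock gene of somite formation, had 6.14, 6.06 and 6.13 in Nkx2-1 high and 6.08, 6.26 and 6.10 in Nkx2-1 low. Heyl, a further Notch target, had 6.28, 6.19 and 5.96 in Nkx2-1 high and 5.99, 6.01 and 6.04 in Nkx2-1 low. In these 3 genes the fractions overlapped, and the 95% intervals of their differences all lay between -0.28 and 0.34.

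The genes of 2 Notch receptors, upstream of the Hes genes, fell. Of 24 measured Notch pathway genes 1 rose and 3 fell, with a median difference of 0.04. All 24 were above background, where 8.40% of genes were called over the array. Notch1 had 7.42, 7.30 and 7.35 in Nkx2-1 high, against 7.77, 7.95 and 8.04 in Nkx2-1 low (-0.56 ± 0.09, limma adjusted p = 0.00568). Notch2 had 8.00, 7.99 and 7.97 in Nkx2-1 high, against 8.49, 8.51 and 8.49 in Nkx2-1 low (-0.51 ± 0.07, limma adjusted p = 0.00291). Both kept their calls in all 6 fits without 1 sample. Dlk1, a relative of the Notch ligands, fell by 0.36 ± 0.09, and Ncstn, a subunit of the protease that releases the Notch intracellular part, rose by 0.32 ± 0.08. With a sample dropped, each of these missed the threshold in 5 of 6 cases (highest adjusted p = 0.166 and 0.156), and Dlk1 also missed it with cyclic loess and Ncstn with median-centred arrays.

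The E proteins, partners of most of the factors above, were measured well above background and did not differ beyond the test. Tcf3 had 8.17, 8.17 and 8.15 in Nkx2-1 high and 8.03, 8.10 and 8.08 in Nkx2-1 low, without overlap but with a difference of 0.09 ± 0.07 (adjusted p = 0.561). Tcf4 had 9.01, 8.99 and 8.65 in Nkx2-1 high and 8.93, 8.93 and 8.66 in Nkx2-1 low, so that replicate 3 of both fractions was the low one. Tcf12 had 8.71, 8.70 and 8.62 in Nkx2-1 high and 8.99, 8.70 and 8.71 in Nkx2-1 low (-0.12 ± 0.09). The 95% intervals of the 3 differences lay between -0.33 and 0.31.

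Of 9 mesodermal bHLH genes 1 rose and 0 fell, and the members near the threshold pointed both ways. Over all genes 6.0% were called, and 2.90% were called higher. Hand1, a factor of heart, lateral mesoderm and trophoblast, had log2 levels of 5.82, 5.96 and 5.89 in Nkx2-1 high, against 5.49, 5.55 and 5.62 in Nkx2-1 low. The fractions did not overlap, and Hand1 rose 1.26-fold (0.34 ± 0.08, limma adjusted p = 0.0363). The call was lost in each of the 6 fits without 1 sample, with adjusted p = 0.0618, 0.148 and 0.0746 without Nkx2-1 high replicates 1, 2 and 3 and 0.108, 0.112 and 0.0594 without Nkx2-1 low replicates 1, 2 and 3. Its paralog Hand2, of heart, limb and sympathetic neurons, had 5.06, 5.14 and 5.13 in Nkx2-1 high and 5.41, 5.22 and 5.39 in Nkx2-1 low. Each Nkx2-1 high sample was thus below each Nkx2-1 low sample, with a difference of -0.23 ± 0.08 that did not pass (adjusted p = 0.154).

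Scx, the tendon factor scleraxis, had 8.03, 7.92 and 7.54 in Nkx2-1 high and 7.54, 7.49 and 7.22 in Nkx2-1 low. In both fractions replicate 3 was the lowest, and Nkx2-1 high replicate 3 met Nkx2-1 low replicate 1. The difference of 0.41 ± 0.14 did not pass (limma adjusted p = 0.128). It was 0.56 without Nkx2-1 high replicate 3 (limma adjusted p = 0.0273) and passed there. Without any other 1 sample Scx did not pass (limma adjusted p from 0.153 to 0.320). Tcf15, of somites and early epiblast, had 5.86, 5.89 and 5.72 in Nkx2-1 high and 6.48, 6.10 and 6.09 in Nkx2-1 low. Nkx2-1 low replicate 1 was the highest sample, and the difference of -0.40 ± 0.11 missed the threshold (limma adjusted p = 0.0750).

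The other mesodermal factors differed little. Tcf21, of lung, kidney and heart mesenchyme, had 5.79, 6.03 and 5.44 in Nkx2-1 high and 5.84, 5.71 and 5.71 in Nkx2-1 low, with a difference of 0.00 ± 0.13. Twist2, of dermal and facial mesenchyme, had 6.20, 6.09 and 6.27 in Nkx2-1 high and 6.14, 6.11 and 6.003 in Nkx2-1 low (0.10 ± 0.08). Msc (musculin) differed by -0.07 ± 0.08, Mesp2, of somite borders, by 0.09 ± 0.09, and Mesp1, of the earliest cardiac mesoderm and not above background, by 0.02 ± 0.10.

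In a list of 21 mesenchyme and muscle genes 6 fell and 1 rose, against 3.09% of all genes called lower and 2.90% higher. The other 14 did not pass, and the median difference of the list was -0.01. Those that fell included Postn (-2.34 ± 0.16), Pdgfra (-2.00 ± 0.17), Prrx1 (-1.90 ± 0.14) and Col1a2 (-1.50 ± 0.08), genes of matrix and mesenchymal cells. The 1 that rose was Meox1 (1.26 ± 0.24), whose call was lost without Nkx2-1 high replicate 2 (limma adjusted p = 0.0601). Among those that did not pass were Fn1 (0.49 ± 0.13), Vim (0.16 ± 0.08), Pdgfrb (0.04 ± 0.16) and Lum (-0.74 ± 0.22). Meox1 and these genes were named after their values were seen. The mean log2 level of the list ran from 6.65 to 6.82 over the Nkx2-1 high samples and from 6.998 to 7.22 over the Nkx2-1 low samples. Of the 21, 17 were above background in at least 1 fraction, and Myh6, Des, Tbx5 and Tnmd were not. The list includes the bHLH gene Twist1, and the part of mesenchymal cells in the values of the mesodermal factors was not tested.

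**Figure D3:**
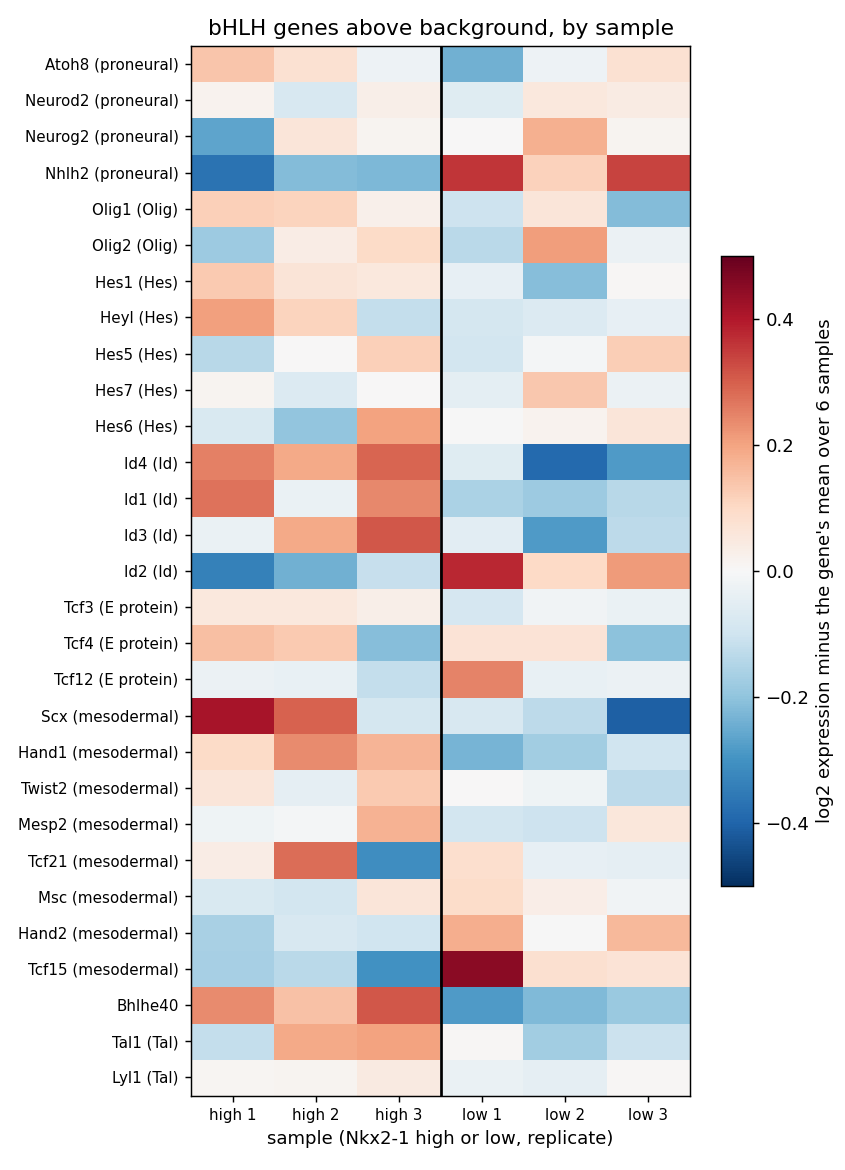
Log2 expression of the 29 bHLH genes above background in each sample, minus the gene's own mean over the 6 samples (red higher, blue lower), with the 3 Nkx2-1 high samples left of the line and the 3 Nkx2-1 low samples right of it. Bhlhe40, Id4 and Hand1 are red across the Nkx2-1 high samples and Nhlh2 and Id2 blue, while Tcf4 and Scx also follow replicate 3 in both fractions.

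Bhlhe40, a repressor of the circadian clock that serum, hypoxia and many other stimuli induce, was one of the clearest changes. It had log2 levels of 7.09, 7.001 and 7.16 in Nkx2-1 high, against 6.57, 6.63 and 6.67 in Nkx2-1 low. The fractions were separated by more than their spread, and Bhlhe40 rose 1.38-fold (0.46 ± 0.08, limma adjusted p = 0.00812). It passed whichever of the 6 samples was dropped (highest adjusted p = 0.0349). Its paralog Bhlhe41 was not above background and differed by -0.04 ± 0.08.

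The blood factors gave no called difference. Tal1, the master factor of blood and endothelial precursors, had 5.30, 5.61 and 5.62 in Nkx2-1 high and 5.42, 5.24 and 5.31 in Nkx2-1 low (0.18 ± 0.10, adjusted p = 0.393). Lyl1, its close relative, had 5.09, 5.10 and 5.13 in Nkx2-1 high and 5.05, 5.04 and 5.09 in Nkx2-1 low. The fractions of Lyl1 did not overlap, at a difference of 0.05 ± 0.07. Tal2, of midbrain inhibitory neurons, was not above background. Of 17 measured blood and endothelial genes 3 rose, 1 fell and 13 did not pass, with a median difference of 0.09. The called share of all genes was 6.0%. Of the 17, 12 were above background in at least 1 fraction. The endothelial receptor gene Flt4 rose by 1.10 ± 0.08, and Tek was above background in Nkx2-1 high alone and at least 1.73-fold higher. The endothelial genes Kdr (-0.08 ± 0.09), Flt1 (-0.12 ± 0.10), Tie1 (-0.19 ± 0.08) and Pecam1 (0.33 ± 0.10) did not pass. Cdh5, also of endothelium, was not above background. These further genes were named after their values were seen. Eng, of endothelium, rose by 0.88 ± 0.21 and Gata2, of blood precursors and other tissues, fell by 0.96 ± 0.18. With a sample dropped, the calls of Eng and Gata2 were lost in 4 and 2 of 6 cases (highest adjusted p = 0.122 and 0.0566).

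Among 67 other measured bHLH genes the largest changes exceeded any in the 40. Of the 67, 5 rose and 4 fell, with a median difference of 0.04, where 6.0% of all genes were called. Hey2, a Notch target of vessels and heart, had 5.95, 5.97 and 6.38 in Nkx2-1 high, against 4.65, 4.93 and 5.04 in Nkx2-1 low, and was 2.34-fold higher (1.23 ± 0.14, limma adjusted p = 0.000813). Its relative Hey1 went the other way (-0.43 ± 0.09), with a call that was lost in 3 of 6 cases when a sample was dropped (highest adjusted p = 0.0824). Twist1, a factor of cranial mesenchyme and neural crest, had 8.06, 8.00 and 7.59 in Nkx2-1 high, against 8.88, 8.83 and 8.77 in Nkx2-1 low, and was 1.93-fold lower (-0.95 ± 0.12, limma adjusted p = 0.00185). Mitf, the melanocyte and retinal pigment factor, had 5.36, 5.55 and 5.31 in Nkx2-1 high, against 4.49, 4.45 and 4.82 in Nkx2-1 low, and was 1.77-fold higher (limma adjusted p = 0.00280). Hey2, Twist1 and Mitf kept their calls in all 6 fits without 1 sample.

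The rest of the 9 were Hif3a (0.46 ± 0.09), Tfeb (0.37 ± 0.09) and Mxd4 (0.34 ± 0.08), which rose, and Srebf2 (-0.31 ± 0.08) and Ferd3l, which fell. Ferd3l was above background in Nkx2-1 low alone and at least 1.26-fold lower in Nkx2-1 high. With a sample dropped, the calls were lost in 1 of 6 cases for Hif3a, 3 for Ferd3l, 5 for Tfeb, 5 for Srebf2 and 6 for Mxd4 (highest adjusted p = 0.0746, 0.0982, 0.140, 0.164 and 0.114), and Srebf2 also missed the threshold with cyclic loess. Hey1 and the genes of this paragraph other than Ferd3l were named after their values were seen.

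**Figure D4:**
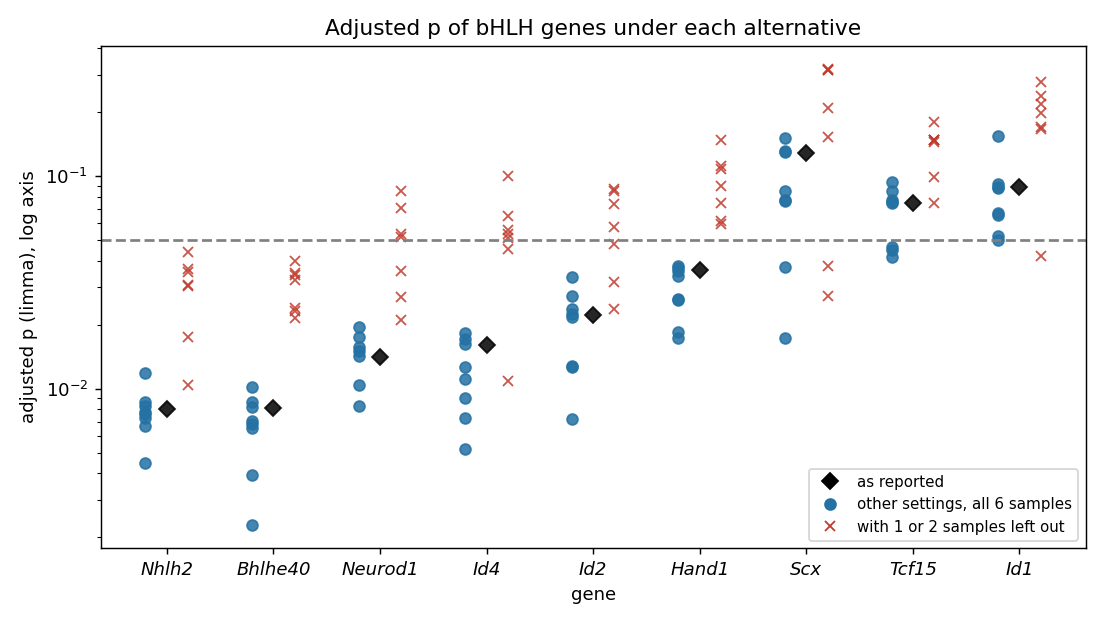
Adjusted p (log axis) of the 6 called bHLH genes and of Scx, Tcf15 and Id1 as reported (black), under settings that keep all 6 samples (blue) and with 1 or 2 samples left out (red). The dashed line is the threshold of 0.05. Nhlh2 and Bhlhe40 stay under it throughout, and every red point of Hand1 lies above it.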

How the data were processed

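RNA of 6 sorted samples was amplified (WT-Ovation Pico), biotin-labelled and hybridised to Affymetrix arrays, per the labels' protocols. The deposited values are RMA values, per the submitters' processing notes. No source states their scale, and the deposited values were read as log2 from their range. The RMA version is not given in the sources used here, nor is the build. Scan dates, slides and detection calls were not used here, and RMA's background step could not be varied. The number of arrays limits the precision.

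GEO's platform annotation gave a single symbol to 21789 of the 29011 rows. All but 91 matched the RefSeq table of GRCm38.p6 by Entrez ID. The row with the highest mean was used per gene, and each bHLH gene had 1 row. The background level, 4.30, is the 95th percentile of the values of 1210 olfactory and vomeronasal receptor rows. Where 1 fraction was above it, the fold was taken against that level. A fold is 2 to the power of the log2 difference.

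The test was limma (version 3.58.1, under R 4.3.3) with lmFit and eBayes (group as the only term, all 6 samples), adjusted over 19938 genes. The fit was tested on simulated data. The genes and lists were chosen with earlier results of these data known. Every bHLH gene of the list is named. Of the other lists, up to 4 called genes with the largest difference were to be named, and further ones are said to be chosen later. Alternatives were median centring, cyclic loess, only genes above background, a replicate block, array weights, robust eBayes with a trend, means over rows, all rows in 1 fit, other background percentiles, and samples left out.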

Additional observations from a re-analysis of the deposited data

How the results depend on the processing

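With all 6 samples kept, each of the 6 called bHLH genes that a setting tested kept its call and direction in median centring, cyclic loess, trend with robust eBayes, array weights, the replicate block and both treatments of rows. With only genes above background, Neurod1 was not tested and the other 5 kept theirs. Each bHLH gene had 1 row, so both treatments of rows left its difference unchanged and could shift only its adjusted p. The number of bHLH genes that fell was 5, in place of 3, with array weights and also with the replicate block. No direction of a called gene reversed. Without 1 sample, the number of bHLH genes that rose ran from 1 to 3 and the number that fell from 1 to 3. Over all genes, 340 to 571 rose and 284 to 515 fell in those fits, against 579 and 617 with all samples. Without both samples numbered 3, 407 genes fell, and Id4 (adjusted p = 0.101), Neurod1 (0.0848) and Hand1 (0.0903) lost their calls. The cause was not tested, and these fits also hold fewer samples. Same-numbered samples share a number in their titles, and whether they were paired is not known here. Their deviations from the group means correlated at 0.18, -0.004 and 0.28, and 4 of 6 samples correlated best with their own number. With the replicate block 1470 genes were called in place of 1196, and Neurog1 (adjusted p = 0.0441), Tcf15 (0.0419) and Scx (0.0173) passed, while Bambi (0.0569) and Ncstn (0.0550) missed the threshold. The number of bHLH genes above background was 21 and 33 with the level at the 99th and 90th percentile, in place of 29. At the 99th percentile (5.33) Nhlh2 was not above background in either fraction (mean 4.795 in Nkx2-1 low). No fold could be given for it there. Low signal limits the proneural group, with 7 of 11 genes not above background.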
